A study of Drosophila virilis and Drosophila willistoni and Drosophila miranda with 119 samples.

Results

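The Polycomb group genes encode the chromatin repressors that keep Hox and other developmental genes silent in cells where those genes were not switched on. The 10 described here were taken by name, whatever their values: Pc, ph-p, ph-d, Psc, Sce, E(z), esc, Su(z)12, pho and Scm, out of 17674 genes in the wider of the deposited ortholog tables. All 10 have a row there. Values at both stages exist in 13 species for Pc, Sce, E(z) and esc, in 12 for Psc and Scm, in 11 for Su(z)12, in 9 for pho and in 3 for ph-d, and in none for ph-p.

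The data are mRNA levels of 119 embryos, each extracted singly, from 14 fly species of the genus Drosophila. Of these, 55 were at stage 5, the cellularizing blastoderm in which the zygotic genome is active, and 64 at stage 2, when the RNA present was laid down by the mother. Each species and stage was represented by 3 to 7 embryos, and the tables give 1 pooled FPKM value (fragments scaled for transcript length and library size) per gene, species and stage, so the spread between embryos and the read depth behind a value are unknown and species serve as the replicates. D. melanogaster enters at stage 2 alone, which leaves 13 species with both stages. The obscura group was D. pseudoobscura, D. persimilis and D. miranda. The melanogaster subgroup was D. simulans, D. sechellia, D. mauritiana, D. yakuba, D. santomea and D. erecta, and at stage 2 also D. melanogaster. The remaining species were D. ananassae, D. willistoni, D. mojavensis and D. virilis.

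The labels set some species apart. In 5 of them (D. mojavensis, D. persimilis, D. santomea, D. sechellia and D. simulans) the raw reads are labelled as mixed with those of D. melanogaster at both stages, and in D. virilis at stage 2; how such reads were separated was not given in the labels. D. pseudoobscura and D. miranda are labelled as total RNA and the others as polyA RNA. Both came from earlier libraries and were crosses between strains, Flagstaff 14 with PP1134 for D. pseudoobscura and MSH22 with SP138 for D. miranda. Their stage 5 embryos, titled as late stage 5, were 3 female and 3 male in each species, and 1 D. pseudoobscura stage 2 embryo was noted as possibly unfertilized. Genes of D. santomea carry identifiers of D. yakuba.

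Polycomb proteins work in complexes. Polycomb repressive complex 2 (PRC2) methylates lysine 27 of histone H3 through E(z), its catalytic subunit, with esc and Su(z)12 as partners it needs for activity. Polycomb repressive complex 1 (PRC1) holds Pc, whose chromodomain binds that methyl mark, the Polyhomeotic proteins ph-p and ph-d, the RING protein Psc and Sce, the E3 ligase that ubiquitylates histone H2A. pho binds DNA at Polycomb response elements, and Scm is a SAM domain protein that associates with PRC1. Mothers supply many of these products to the egg.

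Stage identity was clear in the libraries. All 9 blastoderm markers tested were higher at stage 5 and all 5 markers of cleared maternal RNA were lower. Apart from slam, the blastoderm markers had stage 2 medians of at most 0.145 FPKM. They thus met the required mean of 1 FPKM mainly through stage 5, which favours a call of higher. Summed over their lists, eggshell markers reached at most 8.94 FPKM at stage 5 and 4.99 at stage 2, fat body and yolk markers 13.9 and 5.91, muscle markers 6.85 and 3.81, and testis markers 5.04 and 2.58. Of 4 pole cell genes tested, 3 were lower at stage 5. Over all genes tested, 30.9% were called higher at stage 5 and 16.4% lower, by the rule given below. Values are from whole embryos, so they do not show where in the embryo an RNA lay.

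PRC2's enzyme and both RING proteins of PRC1 were the members called higher at stage 5. E(z) rose by a mean of 1.80 on the log2(FPKM + 1) scale, Psc by 1.29 and Sce by 1.27. No member was called lower on this scale. A call required an adjusted p under 0.05 (limma, Benjamini-Hochberg over 7225 genes, two-sided) and a mean change of at least 1 over species. In all, 3 of the 7 members tested were called higher and 0 lower, where 30.9% of all genes tested were called higher and 16.4% lower. The median change of the 7 members was 0.83, against 0.39 for all genes tested. The 3 members not tested (ph-p, ph-d and pho) had values at both stages in too few species for the requirement of 10. A mean of at least 1 FPKM was also required, and the single ph-p value, 0.565 FPKM, lay under it.

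**Figure D1:**
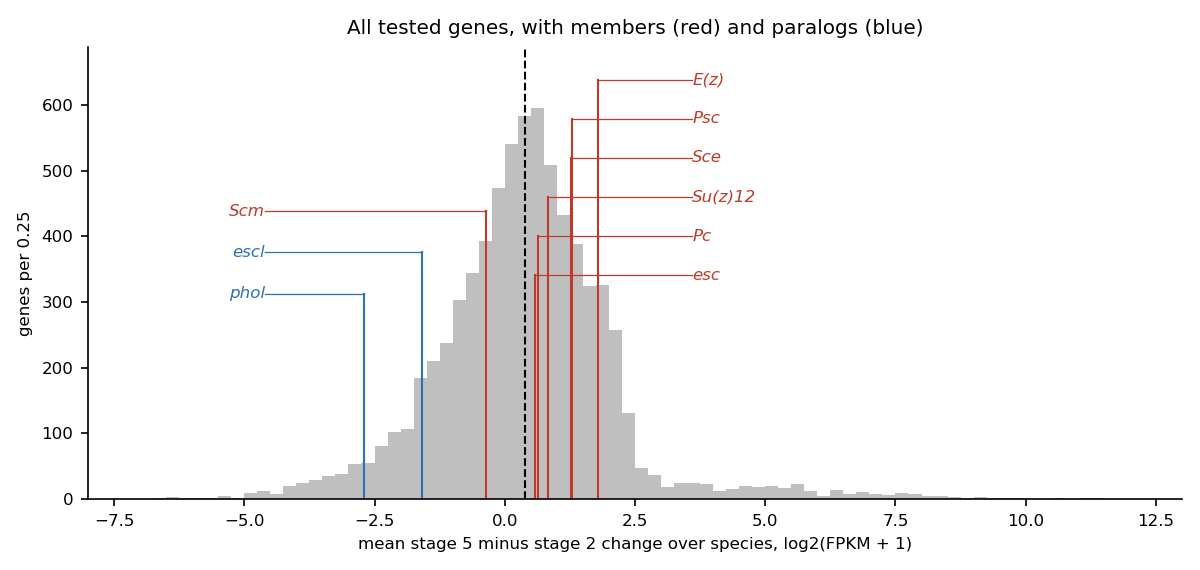
Histogram of the mean stage 5 minus stage 2 change over species, on the log2(FPKM + 1) scale, for the 7225 genes tested, with the 7 members tested in red, the paralogs escl and phol in blue and the median of all genes as a dashed line. E(z) at 1.80 lies farthest right of the members and Scm at -0.35 farthest left, and phol at -2.70 lies left of all members.

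These counts moved with the scale of the columns. Leaving out genes at 100000 FPKM or more, the columns summed to 766099 to 1309341 FPKM at stage 5 and to 257933 to 465053 FPKM at stage 2. When each species' differences were centred on their median, E(z) alone kept its call, at 1.42, with 22.1% of all genes called higher and 22.8% lower. Quantile normalization kept E(z) at 1.07 and Psc at 1.35, with 17.7% of all genes higher and 21.8% lower. Columns were also scaled to an equal total of the genes with a value in every column and under 100000 FPKM in each. Under that scaling no member was called higher and Scm was called lower, at -1.67 (limma adjusted p = 5.63e-07). Of all genes, 8.72% were higher and 41.9% lower. The median of all genes was then -0.69, and Pc, Sce, esc and Su(z)12 changed sign. The directions below are those of the deposited scale.

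Pc, the chromodomain protein of PRC1, had 26.8 FPKM in the lowest species at stage 5, a median of 49.4 and 99.4 in the highest, against 12.5, 30.9 and 82.9 FPKM at stage 2. The direction split by species. Pc was higher at stage 5 in 9 species and lower in 4: D. pseudoobscura, D. persimilis, D. miranda and D. willistoni. In D. mojavensis it had 44.0 FPKM at stage 5 and 12.5 FPKM at stage 2, while in D. miranda it had 32.3 FPKM at stage 5 and 82.9 FPKM at stage 2. The mean change was 0.64 ± 0.98 (SD, n = 13, limma adjusted p = 0.0413), under the minimum size. Restricted to the 5 species labelled as mixed at both stages the change was 1.14 (limma adjusted p = 0.0240), a call, and without every species labelled as mixed it was 0.32 (limma adjusted p = 0.517). Of the 4 species with lower Pc at stage 5, all but D. persimilis are not labelled as mixed, so label and species cannot be told apart.

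The Polyhomeotic proteins, PRC1 subunits encoded by neighbouring copies on the X chromosome of D. melanogaster, had few values. ph-p was given for D. melanogaster at stage 2 alone, at 0.565 FPKM, where ph-d had 5.67 FPKM. ph-d had 44.0 FPKM at stage 5 and 10.3 FPKM at stage 2 in D. willistoni. It had 147 FPKM at stage 5 and 18.8 FPKM at stage 2 in D. mojavensis. In D. virilis it had 46.0 FPKM at stage 5 and 8.86 FPKM at stage 2. All 3 species had more ph-d at stage 5, with a mean change of 2.38 ± 0.46 (SD, n = 3), and no test was made. The copies are near-identical in sequence, so the split of reads between ph-p and ph-d is uncertain.

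Psc, the RING protein that partners Sce, was the lowest member with a value in 9 of 14 species at stage 2. None of those species had a value of ph-p or ph-d. Its lowest, median and highest values were 12.99, 25.8 and 54.1 FPKM at stage 5, against 2.01, 13.4 and 21.03 FPKM at stage 2. It was higher at stage 5 in 12 of 12 species, from a change of 0.10 in D. virilis to 2.72 in D. miranda, with a mean of 1.29 ± 0.82 (SD, n = 12, limma adjusted p = 0.000162). The ranges of the stages overlapped across species, although no species went the other way.

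Sce, the ubiquitin ligase, had a narrow range at stage 2 and a wider one at stage 5. Its lowest, median and highest values were 23.7, 85.7 and 133 FPKM at stage 5 and 20.1, 27.1 and 49.2 FPKM at stage 2. It was higher at stage 5 in 12 of 13 species. The exception was D. miranda, with 23.7 FPKM at stage 5 and 24.6 FPKM at stage 2. The mean change was 1.27 ± 0.73 (SD, n = 13, limma adjusted p = 4.28e-05).

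E(z), the H3 lysine 27 methyltransferase, showed the largest mean change of the 7 members tested. Its lowest, median and highest values were 74.9, 117 and 329 FPKM at stage 5 and 20.3, 32.6 and 119 FPKM at stage 2. It was higher at stage 5 in 13 of 13 species, a pattern found in 22.7% of the 3779 genes with values in all 13. The mean change was 1.80 ± 0.62 (SD, n = 13, limma adjusted p = 1.69e-07). In 12 species the change was at least 1.18. D. ananassae differed, with 131 FPKM at stage 5 and 119 FPKM at stage 2, the highest stage 2 value of the gene.

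esc, the WD40 subunit of PRC2, was higher at stage 5 in 13 of 13 species but by little. Its lowest, median and highest values were 32.5, 69.1 and 106 FPKM at stage 5, against 15.3, 45.1 and 85.8 FPKM at stage 2. The mean change of 0.58 ± 0.37 (SD, n = 13, limma adjusted p = 0.00168) was under the minimum size. D. mojavensis had 72.2 FPKM at stage 5 and 69.7 FPKM at stage 2, nearly the same.

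Su(z)12, the zinc finger subunit of PRC2, had 39.04, 71.1 and 138 FPKM as its lowest, median and highest values at stage 5 and 25.96, 34.0 and 58.8 FPKM at stage 2. It too was higher at stage 5 in 11 of 11 species, and its mean change of 0.83 ± 0.67 (SD, n = 11, limma adjusted p = 0.00332) was under the minimum size. D. erecta stood at the top, with 138 FPKM at stage 5 and 28.996 FPKM at stage 2.

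pho, the DNA-binding protein, had a steady level at stage 2, between 46.4 and 95.7 FPKM with a median of 63.6. At stage 5 it ranged from 4.02 to 144 FPKM with a median of 87.0. It was higher at stage 5 in 5 species and lower in 4. The low value was that of D. erecta, with 4.02 FPKM at stage 5 and 50.6 FPKM at stage 2, and in the other 8 species stage 5 values were at least 52.8 FPKM. With genes measured in at least 6 species admitted to the fit, the mean change was -0.05 ± 1.36 (SD, n = 9, limma adjusted p = 0.917).

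Scm was lower at stage 5 in 10 of 12 species. Its lowest, median and highest values were 20.7, 27.2 and 172 FPKM at stage 5 and 31.2, 36.2 and 80.9 FPKM at stage 2. The highest value at each stage was that of D. ananassae, and the next highest at stage 5 was 34.7 FPKM in D. mojavensis. The mean change was -0.35 ± 0.60 (SD, n = 12, limma adjusted p = 0.132).

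**Figure D2:**
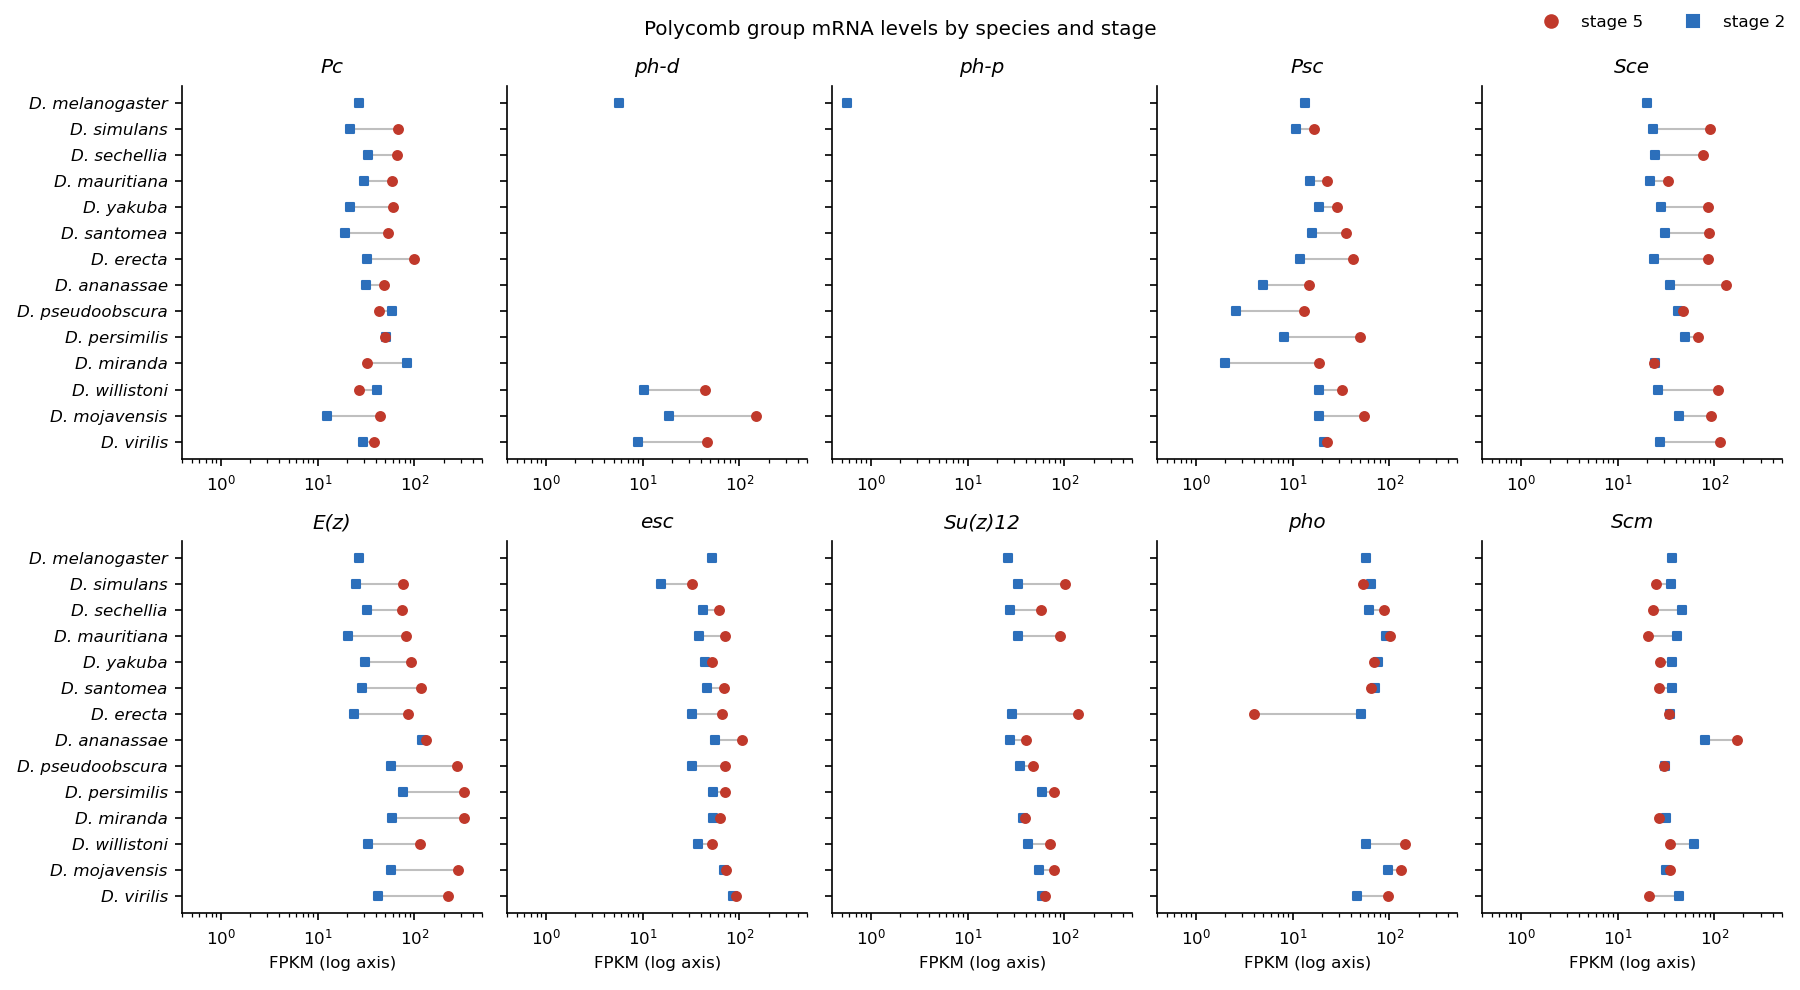
Levels of the 10 members in FPKM on a log axis, 1 panel per member and 1 row per species, with stage 5 as red circles, stage 2 as blue squares and a line joining the stages of a species. E(z) has medians of 117 FPKM at stage 5 and 32.6 FPKM at stage 2, and the isolated points are pho in D. erecta, at 4.02 FPKM, and Scm in D. ananassae, at 172 FPKM.

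**Figure D3:**
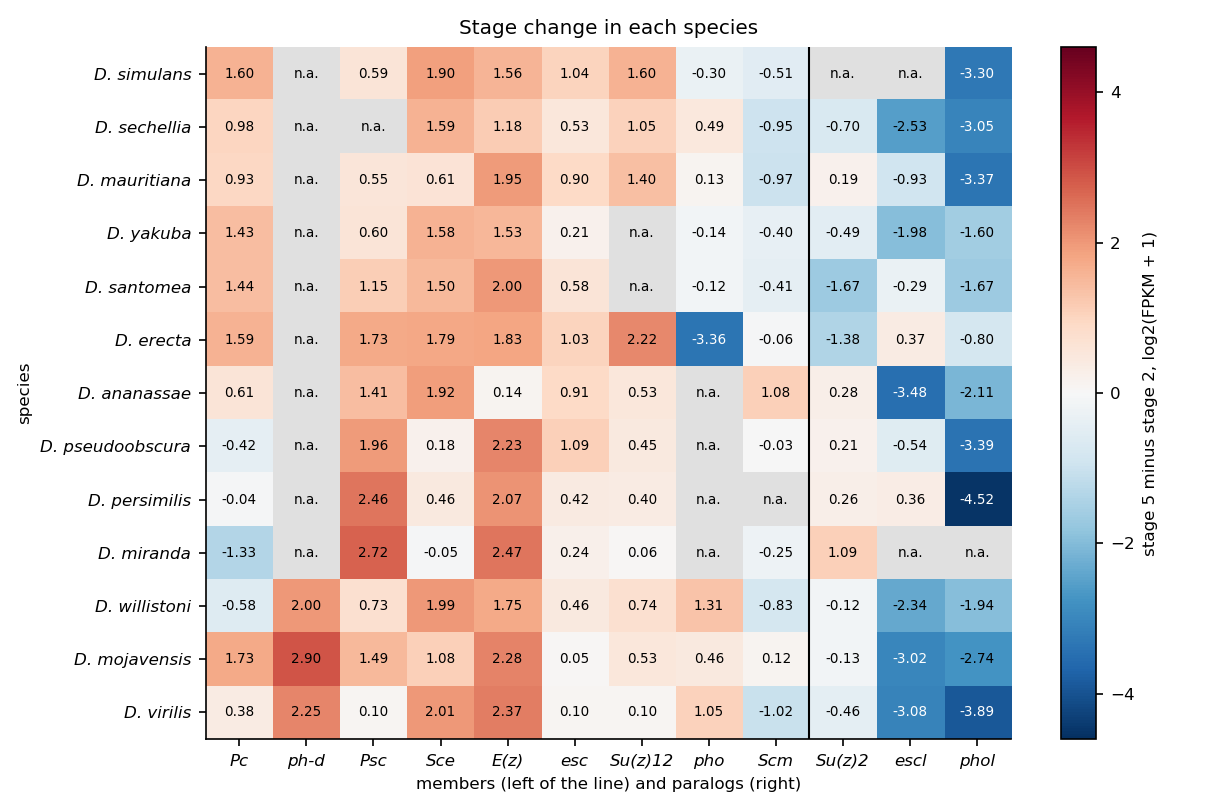
Heat map of the stage 5 minus stage 2 change in log2(FPKM + 1), with 13 species as rows and 9 members and, right of the line, 3 paralogs as columns; red is higher at stage 5, blue lower, and grey has no value. E(z), esc, Psc and Su(z)12 are above 0 in every species with a value, Pc is below 0 in 4 of 13, and Scm is below 0 in 10 of 12.

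FPKM is scaled for transcript length, so levels can be set side by side within a species, among the 6 to 9 members with a value there at stage 5. At stage 5 E(z) was the most abundant member in 7 of 13 species, pho in 3, Su(z)12 in 2 and Scm in 1. pho had no value in 4 of these species, D. ananassae and the obscura group, and E(z) led in 3 of those 4. At stage 2 pho led in 8 of 14 species, Pc and E(z) in 2 each, and esc and Scm in 1 each. Pc and E(z) led only in the same 4 species without a pho value. Psc was the lowest member in 5 of 13 species at stage 5 and in 9 of 14 at stage 2, all without a ph-p or ph-d value. Where ph-p or ph-d had a value, the lowest at stage 2 was ph-p in D. melanogaster, ph-d in D. willistoni and D. virilis and Pc in D. mojavensis. Scm was lowest in 6 of 13 species at stage 5. By medians the order at stage 5 ran from E(z) at 117 FPKM over pho at 87.0, Sce at 85.7, Su(z)12 at 71.1, esc at 69.1 and Pc at 49.4 to Scm at 27.2 and Psc at 25.8. Neighbours in that order overlapped across species. E(z) and Psc, at the ends, did not: the lowest E(z) value, 74.9 FPKM, exceeded the highest Psc value, 54.1 FPKM.

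Within PRC2 the ratios of subunits differed between stages in most species. The ratio of E(z) to esc had a median of 2.17 at stage 5 and 0.801 at stage 2, and was higher at stage 5 in 12 of 13 species. The ratio of E(z) to Su(z)12 had a median of 3.32 at stage 5 and 1.05 at stage 2, higher at stage 5 in 8 of 11. That gap was not seen in the melanogaster subgroup, where the median was 0.823 at stage 5 (4 species) and 0.810 at stage 2 (5 species), while the obscura group had 5.76 at stage 5 and 1.57 at stage 2. Within PRC1, the ratio of Pc to Sce had a median of 0.728 at stage 5 and 1.19 at stage 2, higher at stage 5 in 2 of 13 species. The ratio of Psc to Sce was higher at stage 5 in 4 of 12 species. These ratios are the same under any scaling of a whole column by 1 factor.

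The stage change of several members differed between clades. Against the melanogaster subgroup, the obscura group had a lower stage 5 minus stage 2 change in Pc, Sce and Su(z)12 and a higher one in Psc, and in Pc the clades changed in opposite directions. Differences between clades are given on median-centred log2 values, and FPKM values as deposited. Of 7 members tested, 3 were called lower and 1 higher in the obscura group, where 11.1% of 6876 genes were called lower and 11.4% higher. The groups of species did not overlap in these 4 of 7 members on the centred scale, against 31.1% of all genes.

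Pc had 43.2, 49.4 and 32.3 FPKM at stage 5 and 58.1, 51.0 and 82.9 FPKM at stage 2 in D. pseudoobscura, D. persimilis and D. miranda. In the melanogaster subgroup it had 53.4 to 99.4 FPKM at stage 5 and 19.1 to 32.9 FPKM at stage 2. All 3 obscura species were lower at stage 5 and all 6 melanogaster subgroup species higher. The difference in change was -2.06 ± 0.33 (SE, limma adjusted p = 0.00234).

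Sce had 47.8, 67.9 and 23.7 FPKM at stage 5 and 41.98, 49.2 and 24.6 FPKM at stage 2 in D. pseudoobscura, D. persimilis and D. miranda, against 33.3 to 89.8 FPKM at stage 5 and 20.1 to 30.8 FPKM at stage 2 in the melanogaster subgroup. The difference in change was -1.43 ± 0.31 (SE, limma adjusted p = 0.00922). Both RING proteins thus differed between clades, in opposite directions. Psc had 12.99, 49.3 and 18.8 FPKM at stage 5 and 2.60, 8.13 and 2.01 FPKM at stage 2 in the same 3 species, against 16.7 to 42.1 FPKM at stage 5 and 10.8 to 18.8 FPKM at stage 2, and its difference in change was 1.33 ± 0.33 (SE, limma adjusted p = 0.0188).

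Su(z)12 had 47.8, 77.6 and 39.04 FPKM at stage 5 and 34.7, 58.8 and 37.3 FPKM at stage 2 in D. pseudoobscura, D. persimilis and D. miranda. In the 4 melanogaster subgroup species with both stages it had 57.9 to 138 FPKM at stage 5, and in the 5 with stage 2 it had 25.96 to 33.4 FPKM. The difference in change was -1.41 ± 0.32 (SE, limma adjusted p = 0.0170). E(z), esc and Scm had differences in change of 0.45, -0.26 and 0.26 and were not called (limma adjusted p = 0.201, 0.560 and 0.634).

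Levels were also compared between clades at each stage. At stage 2 Pc was higher in the obscura group by 1.39 (limma adjusted p = 0.00743) and E(z) by 1.38 (limma adjusted p = 0.000567), and Psc was lower, at -1.58 (limma adjusted p = 0.00642). That is 2 of 7 members higher and 1 lower, against 6.74% and 6.3% of 6306 genes. On the centred values species groups did not overlap in 5 of 7 members at stage 2, against 26.1% of all genes. Sce and Su(z)12 were higher by 0.74 and 0.61 (limma adjusted p = 0.0217 and 0.0438), under the minimum size.

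At stage 5 E(z) was the 1 member called, higher in the obscura group by 1.94 (limma adjusted p = 0.000960), against 11.7% of 6960 genes higher and 8.03% lower. Its values were 276, 323 and 329 FPKM in D. pseudoobscura, D. persimilis and D. miranda and 74.9 to 117 FPKM in the melanogaster subgroup, without overlap, which 28.6% of all genes also showed. D. mojavensis and D. virilis, of a separate lineage, had 284 and 222 FPKM of E(z) at stage 5. Relative to esc, E(z) had a median ratio of 4.52 in the obscura group and 1.49 in the melanogaster subgroup at stage 5. At that stage Pc, Sce and Su(z)12 differed by -0.55, -0.63 and -0.75, and Psc by -0.15. None was called (limma adjusted p = 0.217, 0.283, 0.214 and 0.833). For Sce and Su(z)12 these were about as large as the differences at stage 2, with the opposite sign.

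D. pseudoobscura and D. miranda are also the 2 species labelled as total RNA from earlier libraries, so for them clade and library type cannot be told apart. D. persimilis, labelled polyA RNA and mixed, had changes of -0.043 in Pc, 2.46 in Psc, 0.457 in Sce and 0.395 in Su(z)12. It was among the species that made these calls, so its values are no separate check on library type. Without the melanogaster subgroup species labelled as mixed, the difference in change of Pc was -2.03 (limma adjusted p = 0.0324), while Psc at 1.31, Sce at -1.24 and Su(z)12 at -1.61 lost the call (limma adjusted p = 0.0773, 0.0835 and 0.0526) with fewer species in the fit. E(z) kept its call there at stage 5, at 1.97 (limma adjusted p = 0.0189), and at stage 2, at 1.42 (limma adjusted p = 0.0122). Pc at stage 2 was then 1.27 (limma adjusted p = 0.0507), no longer a call. The call of Psc was lost without D. persimilis, at 1.27, and without D. miranda, at 1.17 (limma adjusted p = 0.0712 and 0.0686), and that of Su(z)12 without D. miranda, at -1.28 (limma adjusted p = 0.0540).

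**Figure D4:**
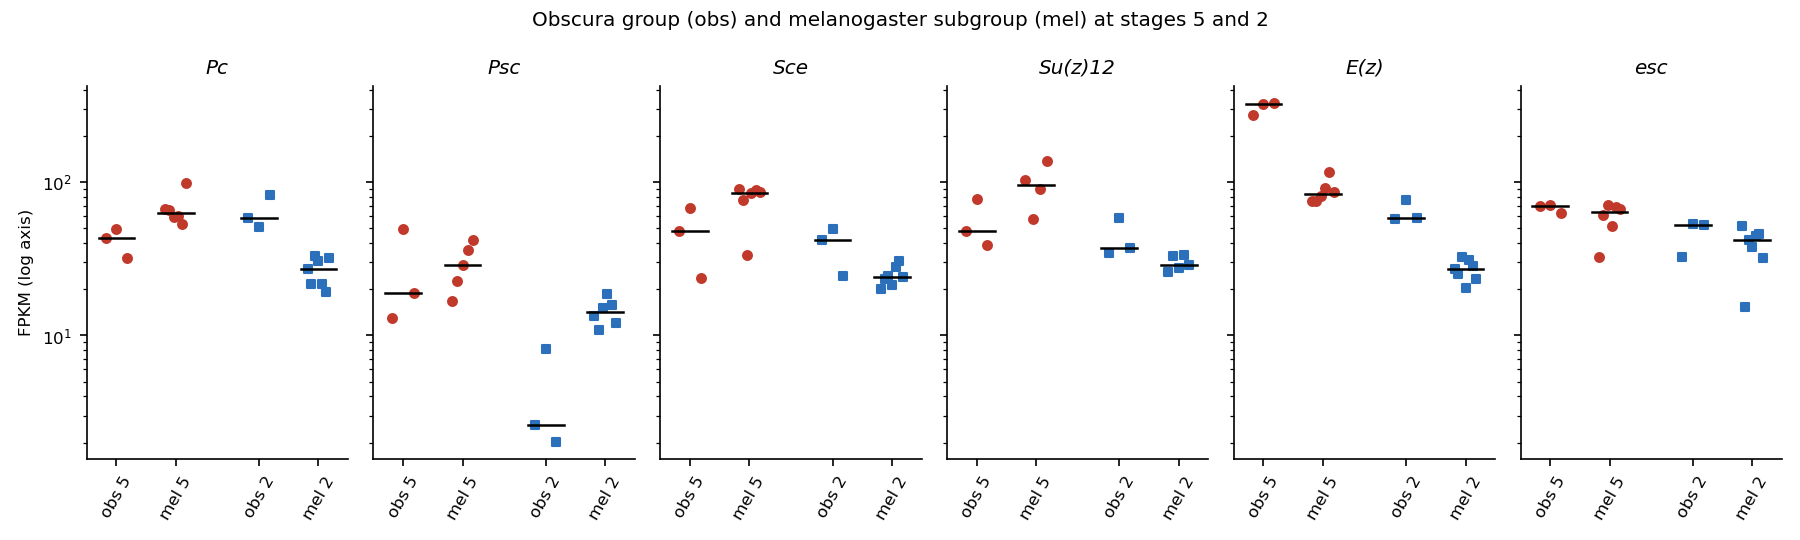
FPKM on a log axis of 6 members in the obscura group (obs) and the melanogaster subgroup (mel), at stage 5 in red and stage 2 in blue, 1 point per species with the median as a bar. E(z) is higher in the obscura group at both stages, at 276 to 329 against 74.9 to 117 FPKM at stage 5, and Psc at stage 2 is lower there, at 2.01 to 8.13 against 10.8 to 18.8 FPKM.

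Of the members, 3 have a paralog of the same role that was measured widely: Su(z)2 for Psc, escl for esc and phol for pho. escl fell by 1.59 on the log2 scale (SD 1.42, n = 11, limma adjusted p = 0.00334) and phol fell by 2.70 (SD 1.08, n = 12, limma adjusted p = 2.36e-06, lower in 12 of 12 species). Su(z)2 was low at both stages, with medians of 0.235 FPKM at stage 5 and 0.663 FPKM at stage 2, and was not tested on its own.

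esc exceeded escl in stage change by 2.16 ± 1.29 (SD, n = 11, exact two-sided sign-flip permutation p = 0.000977, adjusted over 3 pairs 0.00146), higher in 11 of 11 species. That p is the smallest 11 species allow. pho exceeded phol by 2.43 ± 2.15 (SD, n = 9, exact permutation p = 0.0156, adjusted 0.0156), in 8 of 9 species. With 1 mean per clade pho minus phol was 2.70 over 4 clades, for which the exact p of 0.125 is the smallest possible. For Psc and Su(z)2 the outcome depended on the scale. Psc had the higher change in 11 of 11 species on the log2(FPKM + 1) scale, by 1.55 ± 0.88 (SD), but that scale compresses changes of a gene under 1 FPKM such as Su(z)2. As a plain ratio of stage 5 to stage 2 FPKM, Psc had the larger fold in 7 species and Su(z)2 in 4: D. ananassae, D. pseudoobscura, D. persimilis and D. miranda.

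The exception to pho over phol was D. erecta, where pho had 4.02 FPKM at stage 5 and 50.6 FPKM at stage 2 while phol had 21.3 FPKM at stage 5, its highest value, and 37.9 FPKM at stage 2. Of the summed pair, pho made up a median of 95.9% at stage 5 and 66.2% at stage 2, and 15.8% at stage 5 in D. erecta. esc made up a median of 93.2% of esc and escl at stage 5 and 80.8% at stage 2. Psc made up 99.1% of its pair at stage 5 and 97.4% at stage 2.

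**Figure D5:**
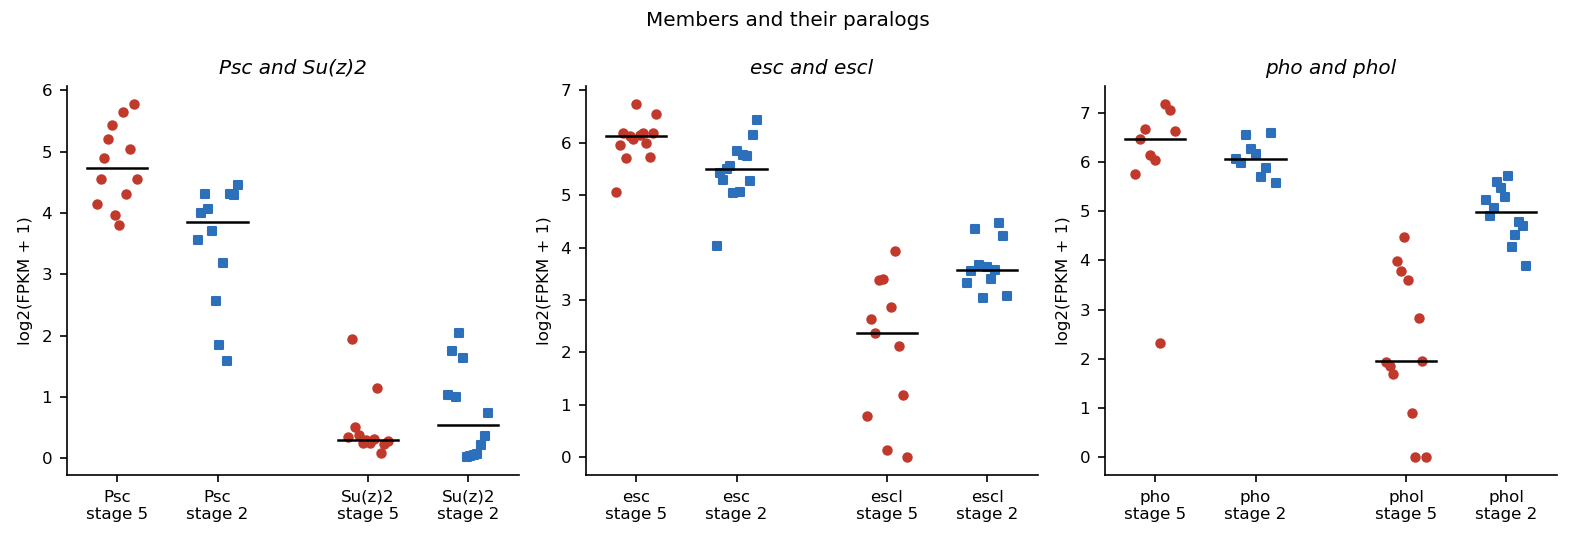
Levels in log2(FPKM + 1) of 3 members and their paralogs, at stage 5 in red and stage 2 in blue, 1 point per species with both stages and the median as a bar. The paralogs escl and phol are lower at stage 5 in 9 of 11 and 12 of 12 species, and the isolated pho point at stage 5 is D. erecta, at 4.02 FPKM.

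Other genes of the pathway moved in both directions, and their counts stand against 30.9% of all genes tested higher and 16.4% lower. Of 6 other PRC1 or PRC1-linked genes tested, lolal, a BTB protein that acts with the GAGA factor, rose by 2.41 and RYBP, a PRC1 partner, fell by 2.33. Of 5 other PRC2 genes, jing, a zinc finger protein, rose by 2.42 and Caf1, the histone-binding subunit, by 1.79, and escl fell. Of 6 genes of PR-DUB and other Polycomb functions, 3 were higher and 1 lower: Rpd3, a histone deacetylase, rose by 2.45, sxc, which adds O-GlcNAc to Polyhomeotic, by 1.57, and crm fell by 1.65. Of 8 binders of Polycomb response elements, 4 were higher and 1 lower, among them grh, at 5.78, lolal, and phol, which was lower.

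Trithorax group genes, which oppose Polycomb repression, had 10 of 18 higher and 1 lower, with a median of 1.25, against 30.9% higher, 16.4% lower and a median of 0.39 over all genes tested. The largest changes were those of Mnn1, which encodes menin and fell by 2.28, and of the Brahma complex subunits mor and Snr1, which rose by 2.09 and 1.84. The Hox and engrailed targets had 6 of 7 higher and 0 lower, with Dfd at 4.59, Antp at 3.74 and abd-A at 3.36. The listed targets pb, Abd-B and inv were not tested. Stage 2 medians of the list were at most 0.0158 FPKM. Those tested thus passed the filter on mean FPKM only through stage 5, which favours a call of higher. Summed, the targets stood at 39.4 to 99.6 FPKM over species at stage 5 and at no more than 1.64 FPKM at stage 2. Entering by the same filter, the same 6 targets were called higher with columns at the same total. That scaling had 8.72% of all genes higher and 41.9% lower. There the trithorax group had 0 of 18 higher and 4 lower, the Polycomb response element binders 2 higher and 3 lower, the other PRC1 genes 1 higher and 2 lower, and the other PRC2 genes 1 higher and 3 lower.

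Some genes resembled the members across species and stages. By Pearson's r of median-centred log2(FPKM + 1), over the 21 to 27 columns with both genes, E(z) was most like Roc1a (0.92) and e(y)1 (0.92), Sce like RpS19a (0.92) and eIF-3p66 (0.92), and Psc like BRWD3 (0.89) and osa (0.88), a trithorax group gene. Su(z)12 was most like Lpt (0.86) and bdg (0.86), esc like l(2)37Cg (0.78) and nonA (0.78), and Pc like CG1273 (0.77) and CG6602 (0.76). CG1273 and CG6602 were low, with medians of 2.51 and 1.87 FPKM at stage 5 and 0.094 and 0.055 FPKM at stage 2. Scm was most like CG10513 and al, both with a median listed at 0 FPKM at each stage. Its likeness to them may thus rest on few columns, which was not tested. All these likenesses are descriptions, since columns share species and stage, and ph-p, ph-d and pho had fewer than 20 columns.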

How the data were processed

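The authors deposited FPKM values, 1 per gene, species and stage, in 2 tables: 3764 genes found in every species and a wider set of 17674, in which those 3764 have identical values. Per the submitters' processing notes the tools were cutadapt, TopHat2, Cufflinks, Cuffnorm and Cuffdiff; versions are not stated, and the genome builds were not given in the sources used here. The unit FPKM was taken from these tools and the deposited values, which sum to no fixed total. In the wider table the values stand 1 column left of their header names, and were read by position. Columns not used were 1 per table, 2 in all, because no sample in the labels matched them.

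Values were taken as log2(FPKM + 1), a scale that understates changes of low genes. Stage differences per species were tested with limma 3.58.1 (R 4.3.3; intercept, trend, two-sided, Benjamini-Hochberg over 7225 genes with at least 10 species and a mean of at least 1 FPKM); a call needed adjusted p under 0.05 and a change of at least 1. Clades were compared by limma on median-centred values, with at least 2 obscura and 4 melanogaster subgroup species. Paralog pairs were compared by exact sign-flip permutation over species, adjusted over 3 pairs; ph-p and ph-d share no species with both stages. Species are related by descent and not independent, so p-values that count each species as a replicate may be too small. With 1 mean per clade (n = 6), 3 members were again called higher and 0 lower, against 2135 of 7225 genes higher and 966 lower. The limma adjusted p of esc was then 0.0539 and that of Pc 0.236. The named genes were the 10 members, 3 paralogs and, of each list, at most the 3 called genes with the largest change; for each member the 2 most alike genes were named. The members and lists were chosen with earlier results of these data known. The fit was tested on simulated data. All 10 member symbols matched the reference symbol table. Depth is unknown, so no counting interval is given. Alternatives covered the pseudocount, filters, scaling, clade means, pairing and left-out species.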

Additional observations from a re-analysis of the deposited data

Results flagged for a closer look

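Among melanogaster subgroup species, 4 values, each from a set of 6 species, stood apart from the rest by Dixon's criterion. The 24 checks covered sets of 4 to 7 species, and chance flags about 1 in 20 of independent checks. These were not independent, since each stage change comes from stage values that were also checked. Pc in D. erecta was high at stage 5, at 99.4 FPKM. Sce in D. mauritiana was low at stage 5, at 33.3 FPKM, and its stage change of 0.61 was the smallest of the 6. pho in D. erecta had a stage change of -3.36, against -0.30 to 0.49 in the other 5 species.

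The stage change of 4 members differed between the obscura group and the melanogaster subgroup by limma's contrast. The differences, obscura minus melanogaster subgroup in log2, were -2.06 for Pc, 1.33 for Psc, -1.43 for Sce and -1.41 for Su(z)12. The part of library type, which in D. pseudoobscura and D. miranda differed from the other species, cannot be told apart from clade.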

How the results depend on the processing

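No paired analysis was possible because the columns hold 1 pooled value per species and stage, so embryos cannot be paired by replicate number; the stages themselves were paired by species, and treating them as unpaired also gave 3 members higher. Members called higher between stages numbered 3, and 1 with median-centred differences and 0 with columns at the same total, where 1 member was lower; all genes called higher then numbered 630 and lower 3028, and quantile normalization gave 1276 higher. Under the same total Pc was -0.67, Sce -0.044, esc -0.74 and Su(z)12 -0.52, and esc was -0.019 under quantile normalization; each reversed its sign. Without the mixed melanogaster subgroup species, members differing between clades in stage change were 0 higher and 1 lower (all genes 378 and 364), 1 member was higher at stage 2 (all genes 256 higher and 227 lower), and at stage 5 all genes numbered 308 higher and 184 lower. Leaving out 1 species at a time gave 3 members higher between stages each time (all genes 2212 to 2253 higher and 1142 to 1199 lower, of 7225). For the clade difference in change it gave 0 to 1 higher and 2 to 3 lower (all genes 446 to 800 higher and 515 to 804 lower). For stage 5 levels it gave 506 to 757 genes higher and 344 to 542 lower. Small clade differences in level changed sign. At stage 2 Scm was 0.03, -0.27 without centring and -0.0028 to 0.060 with 1 species left out (-0.00048 without D. santomea); escl was -0.01 and -0.13 to 0.12 (0.03 without D. melanogaster, 0.11 without D. persimilis). At stage 5 Psc was -0.15 and -0.57 to 0.21 (0.0017 without D. erecta). With a pseudocount of 0.1 Psc exceeded Su(z)2 in 9 of 11 species. pho minus phol was 2.70 with 1 mean per clade (exact permutation p = 0.125), and 2.12 to 3.06 with 1 species left out. The cause of these shifts was not tested, and the reduced fits also held fewer species. Read depth is unknown, so what it limits cannot be stated.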
